A study of Mus musculus with 6 samples.

Results

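Synaptotagmins were followed in mouse cerebral cortex as 10 genes, Syt1, Syt2, Syt3, Syt4, Syt5, Syt6, Syt7, Syt11, Syt13 and Syt17, represented by 28 of the 45037 probe sets measured beside controls. A probe set is a group of short DNA probes that together report 1 transcript region, and a gene can have several. All probe sets whose platform annotation gives 1 of these symbols were taken. The family was chosen from the measured values themselves, because a Syt4 probe set was much lower in 1 group, so the group differences of the members are given as a description and without p-values. Total RNA of cerebral cortex was measured on 6 Affymetrix arrays, 3 described as wild type and 3 as Egr1/Egr3 double knockout, in which the genes of both transcription factors Egr1 and Egr3 are named as targeted. The sources used here give no strain, age, treatment, allele or pooling of RNA. Separate animals are not named for the replicates, so intervals and adjusted p-values cover the spread among these arrays alone. That spread may be technical, except that double knockout replicate 2 differed in sex from the other arrays. The title of double knockout replicate 1 names no genotype, unlike those of replicates 2 and 3, and its group was taken from its description.

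Synaptotagmins are proteins of secretory vesicles and of the plasma membrane, most of them anchored by 1 transmembrane segment and carrying a tandem pair of C2 domains. In the calcium-binding members these domains bind phospholipids and SNARE proteins when calcium enters, which couples calcium to vesicle fusion. Syt1 and Syt2 are the fast calcium sensors of synchronous transmitter release, and Syt7 is a slower sensor of higher affinity that serves asynchronous release, facilitation and vesicle replenishment. Syt4 and Syt11 form a related pair whose first C2 domain carries a substitution that prevents calcium binding, and Syt4, known to be induced by neuronal activity, is found on vesicles that carry the neurotrophin BDNF. Egr1 and Egr3 are zinc finger factors that neurons induce with activity and that bind a GC-rich DNA motif.

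The promoters of 2 members with several bright probe sets, Syt1 and Syt11, are shown because the groups differ by label in 2 factors that bind DNA. Both sequences are the 250 bases before a RefSeq transcript start in GRCm38.p6, on the minus strand, at chr10:109010976-109011225 for Syt1 and chr3:88772600-88772849 for Syt11, read 5′ to 3′ towards the start. Capitals mark 1 of the 9-base stretches closest to the Egr motif, which was compared on either strand. Another stretch can match as many letters.
Syt1: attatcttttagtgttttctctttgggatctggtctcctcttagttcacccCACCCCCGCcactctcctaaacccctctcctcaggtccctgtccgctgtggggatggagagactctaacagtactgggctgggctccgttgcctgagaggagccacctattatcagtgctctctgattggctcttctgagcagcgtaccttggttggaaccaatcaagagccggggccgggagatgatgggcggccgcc
Syt11: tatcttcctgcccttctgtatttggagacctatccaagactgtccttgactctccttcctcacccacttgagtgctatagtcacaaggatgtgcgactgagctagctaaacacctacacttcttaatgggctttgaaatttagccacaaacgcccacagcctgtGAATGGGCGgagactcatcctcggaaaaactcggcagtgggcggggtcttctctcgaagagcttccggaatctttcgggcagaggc
The motif was searched as GCGTGGGCG or GCGGGGGCG on both strands of windows from 250 bases before to 50 after each start. The table held 9 such windows for 5 members (Syt1, Syt2, Syt3, Syt6 and Syt11), and 2 of the Syt6 windows overlap. None of the 9 held the motif, against 3.47% of 32851 windows of the same length for all genes, and 0.612% for GCGTGGGCG alone. At such shares 9 windows would mostly hold none, so nothing about the members is read from the absence. A stretch with at least 8 of the 9 letters lay in 4 of the 9 windows, against 27.2% of all windows. These 4 include the 2 overlapping Syt6 windows, which share the same stretch, so it is counted 2 times. The capitals in Syt1 match 8 of 9 letters and begin 199 bases before the start, and those in Syt11 match 7 of 9 and begin 86 bases before it. These counts describe letters in short windows and do not show whether a factor binds there. Windows of Syt4, Syt5, Syt7, Syt13 and Syt17 were not used here.

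Signals are in arbitrary units, and the median probe set of an array read 36.2 to 39.5. With 3 arrays a group, their number limits the precision. The targeted genes were examined first. Egr3 read 1189, 2670 and 924 in wild type against 339, 370 and 507 in the labelled double knockout arrays, and fell by 1.80 on the log2 scale (SE 0.32, limma, Benjamini-Hochberg adjusted p = 0.0361). Its call was lost without any 1 of wild type replicate 1 and the 3 labelled double knockout arrays. It was also lost with a robust trend, with no intensity trend and with no filter on dim probe sets. Another Egr3 probe set, too dim for the test, read 39.2, 44.7 and 37.1 in wild type. In the labelled double knockout arrays it read 21.3, 17 and 14.7, lower without overlap. Egr1 read 1247, 2054 and 1430 against 2116, 2647 and 2657, a log2 difference of 0.67 (SE 0.17, adjusted p = 0.108), so its signal was not lower in the labelled double knockout arrays. Whether its probes lie inside a deleted part was not given, so Egr1 checks no label, and that group is called by its label throughout. Of the 6 arrays, double knockout replicate 2 alone was female by its Xist signal, 3140 against at most 42.5 elsewhere. In wild type replicate 1 the 18 spiked control probe sets had a median ratio of 0.411 to the other arrays, against 0.878 to 1.38 in the others. The summed signal of 5 choroid plexus markers was 10927 in wild type replicate 3 and 4780 in double knockout replicate 1, against 102 to 430 in the other 4 arrays. Ttr alone made up most of both sums, at 10347 and 4697. Clic6 (110) and Folr1 (245) were also high in wild type replicate 3. In double knockout replicate 1 they read 30.6 and 29.8, within the range of the other 4 arrays. The Gapdh 3′ to 5′ control ratio, a sign of RNA quality, was 0.806 to 0.873 in wild type and 0.881 to 0.95 in the labelled double knockout arrays. For Actb it was 1.58 to 1.95 against 1.68 to 1.89.

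The tissue markers are given here because bulk RNA cannot tell fewer cells of a type from less RNA per cell. Summed over 6 pan-neuronal markers, none of which passed the test, the signal was 15699 to 19177 in wild type and 18120 to 20058 in the labelled double knockout arrays, and the lowest value of any of them on any array was 773. They did not move together. Rbfox3 (0.32) and Eno2 (0.20) were higher without overlap. Snap25 (0.23), Tubb3 (-0.01), Nefl (-0.27) and Nefm (-0.38) overlapped. The sum of 4 upper layer neuron markers was 4118 to 4572 against 3007 to 3175, with 1 of the 4, Calb1, past the threshold. That fall mostly followed Calb1, whose means were 2292 and 1129 without overlap of the groups. Cux2 (0.26), Rasgrf2 (-0.02) and Rorb (-0.31) overlapped, so the sum does not show a shared fall of these markers. Of 5 astrocyte markers, summed at 5494 to 5848 against 4891 to 5326, Aqp4 passed. Without overlap of the groups, Aqp4 (-0.96) and Gfap (-0.83) were lower and Slc1a3 (0.38) was higher. Aldh1l1 (-0.12) and Gja1 (-0.02) overlapped. All 6 microglial markers had negative differences but none passed, with sums of 2576 to 3007 against 1983 to 2480. The sum of 4 oligodendrocyte markers was 11304 to 13569 against 13752 to 15786, with 0 past the threshold. This sum mostly followed Mbp (0.37), which did not overlap between groups, while Mog (0.16), Mag (0.13) and Mobp (-0.05) did. The part of these marker differences, and of the Gapdh ratio, in the synaptotagmin values below was not tested.

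Of the 28 probe sets, 21 in 9 genes were bright enough for the test (a mean signal over all arrays above the median probe set, about 36.6). All 4 of Syt6, 2 of 3 of Syt2 and 1 of 4 of Syt7 were not. At an adjusted p under 0.05 over all 22518 probe sets tested, 2 members passed, against a background of 1.02%, and both were lower in the labelled double knockout arrays, against 0.591% of all probe sets in that direction. The probe sets were 1415844_at of Syt4 and 1439633_at of Syt7. The count was 1 without double knockout replicate 3, which dropped Syt7, 4 without wild type replicate 2, which added both probe sets of Syt17, and 0 without wild type replicate 1, the array of dim spiked controls, and double knockout replicate 2, the female array, together. The arrays of the groups did not overlap in 7 of the 21, 5 lower and 2 higher, against 22.3% of all probe sets tested. The median log2 difference was -0.07 for the 21 and 0.009 for all tested, with 13 negative and 8 positive. Because the comparison itself chose the family, nothing is read from these counts.

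Syt4 gave different values from its 2 probe sets, which the platform derives from the same sequence record. Probe set 1415844_at read 758, 977 and 636 in wild type against 279, 228 and 257 in the labelled double knockout arrays. Every labelled double knockout array lay below every wild type array, and the means were 791 ± 173 and 255 ± 25.8 (SD, n = 3 each), a 3.1-fold lower level. The log2 difference, on the scale of log2(signal + 16), was -1.56 (SE 0.15, 95% interval -1.90 to -1.22). Without both arrays of high summed choroid plexus signal, mostly Ttr, it was -1.76, and without the female array -1.48. It ranged from -1.76 to -1.40 over 18 alternative settings, but the call was lost with no filter on dim probe sets and without wild type replicate 1 and double knockout replicate 2 together.

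Probe set 1415845_at of Syt4 read 985, 1001 and 1190 in wild type against 967, 879 and 904 in the labelled double knockout arrays. The groups did not overlap here either, but the nearest arrays were 985 and 967. Means were 1059 ± 114 and 916 ± 45.1 (SD, n = 3 each), with a log2 difference of -0.20 (SE 0.11, 95% interval -0.44 to 0.04), which did not pass. The interval excludes a fall of the size seen with 1415844_at.

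**Figure D1:**
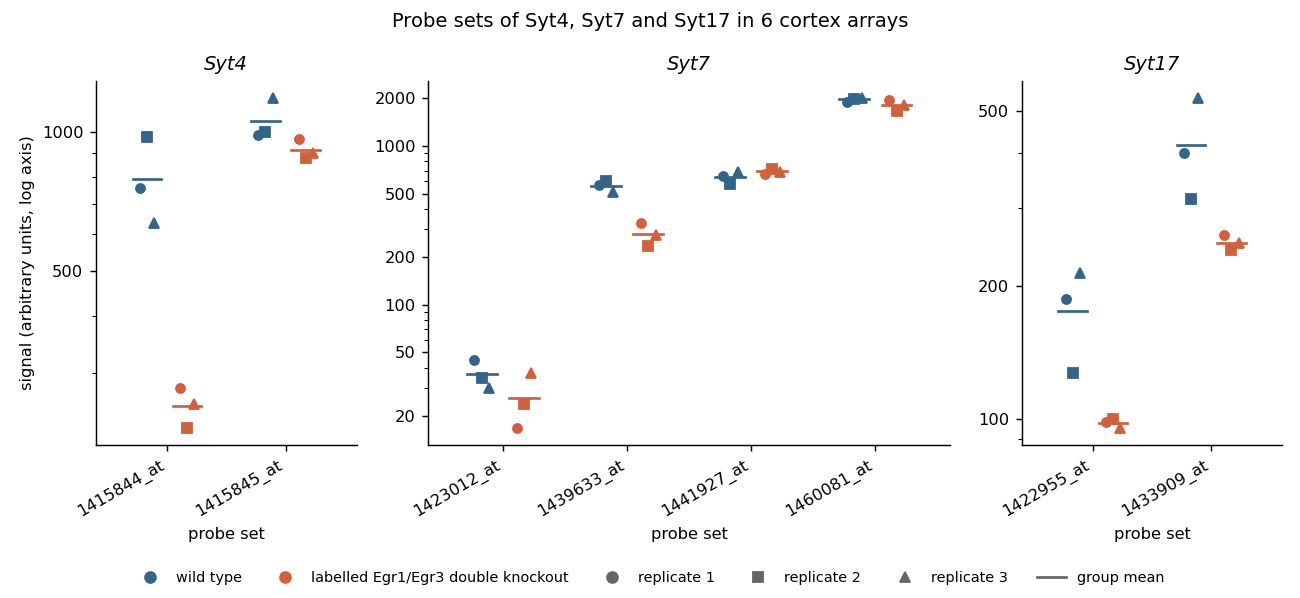
Signal of every probe set of Syt4, Syt7 and Syt17 in the 6 arrays (log axis, arbitrary units). Points are arrays, symbols are replicate numbers, for which no pairing is named, and lines are group means. The groups stand apart at 1415844_at of Syt4 and 1439633_at of Syt7, lie close at the other tested probe sets of these 2 genes, and stand apart at both probe sets of Syt17.

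The disagreement within Syt4 was present array by array. The ratio of 1415844_at to 1415845_at within each array was 0.77, 0.976 and 0.535 in wild type against 0.289, 0.259 and 0.285 in the labelled double knockout arrays. The ratio thus had a wide range in wild type and a narrow, lower one in the other group, 0.76 ± 0.22 against 0.278 ± 0.016 (SD, n = 3 each). A ratio within an array shows unequal change and does not show that either probe set was constant. Where the probes lie along the transcript, and so which transcript ends or forms they report, was not used here.

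Syt7, the slow high-affinity sensor, also differed between its probe sets. Probe set 1439633_at read 568, 600 and 515 in wild type against 327, 234 and 276 in the labelled double knockout arrays. The groups were far apart for their spread, with means of 561 ± 43 and 279 ± 46.3 (SD, n = 3 each), a 2.01-fold lower level and a log2 difference of -0.98 (SE 0.13, 95% interval -1.27 to -0.68). Over the 18 alternative settings the difference ranged from -1.15 to -0.85, and the call was lost in 3 of them, with no filter, without double knockout replicate 3 (-0.98) and without wild type replicate 1 and double knockout replicate 2 together (-0.85).

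The other 2 tested probe sets of Syt7 showed no such gap. Probe set 1460081_at read 1903, 1976 and 2023 against 1957, 1663 and 1805, a log2 difference of -0.12 (95% interval -0.34 to 0.10). Probe set 1441927_at read 649, 579 and 682 against 670, 719 and 686, a log2 difference of 0.12 (95% interval -0.11 to 0.34). Groups overlapped at both, and neither interval reaches the size seen with 1439633_at. Within arrays the ratio of 1439633_at to 1460081_at was 0.299, 0.304 and 0.255 in wild type against 0.167, 0.141 and 0.153 in the labelled double knockout arrays. Against 1441927_at it was 0.876, 1.04 and 0.756 and then 0.488, 0.326 and 0.403, so both ratios were lower in every labelled double knockout array. The fourth probe set, 1423012_at, was too dim for the test, at 30 to 44.9 against 16.7 to 37.

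A gene with a called probe set usually had another that was not called. Among 5136 genes with 2 or more tested probe sets, 103 had at least 1 past the threshold, and 92 of these (89.3%) had another that did not pass. Spans as wide as those of Syt4 and Syt7 were less common. The log2 differences of the Syt4 probe sets lay 1.36 apart and those of Syt7 at most 1.10 apart, where the median gene spanned 0.20. A span at least as wide was found in 15 of the 5136 genes for Syt4 (0.292%) and in 28 for Syt7 (0.545%). Among genes with the same number of tested probe sets the shares were 0.263% of 3040 and 0.386% of 1296. Both genes enter these counts, and their members' differences chose the family, so the spans are descriptive.

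Syt17, also known as the B/K protein, lacks a transmembrane segment and differed alike at both its probe sets. Probe set 1433909_at read 400, 315 and 535 in wild type against 261, 242 and 250 in the labelled double knockout arrays. Probe set 1422955_at read 187, 127 and 214 against 98.3, 99.9 and 95.5. The groups stood apart at both, wild type being widely spread and lowest in replicate 2, and the labelled double knockout arrays lying within a narrow band. Log2 differences were -0.66 (SE 0.17, 95% interval -1.04 to -0.29) and -0.73 (SE 0.18, 95% interval -1.12 to -0.33), and neither passed the threshold over all probe sets. Both passed when wild type replicate 2 was left out, at -0.84 and -0.92. The 2 probe sets kept a ratio of 0.4 to 0.467 in wild type and 0.376 to 0.412 in the other group, and their log2 differences lay 0.06 apart, a span exceeded or equalled by 85.3% of genes.

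**Figure D2:**
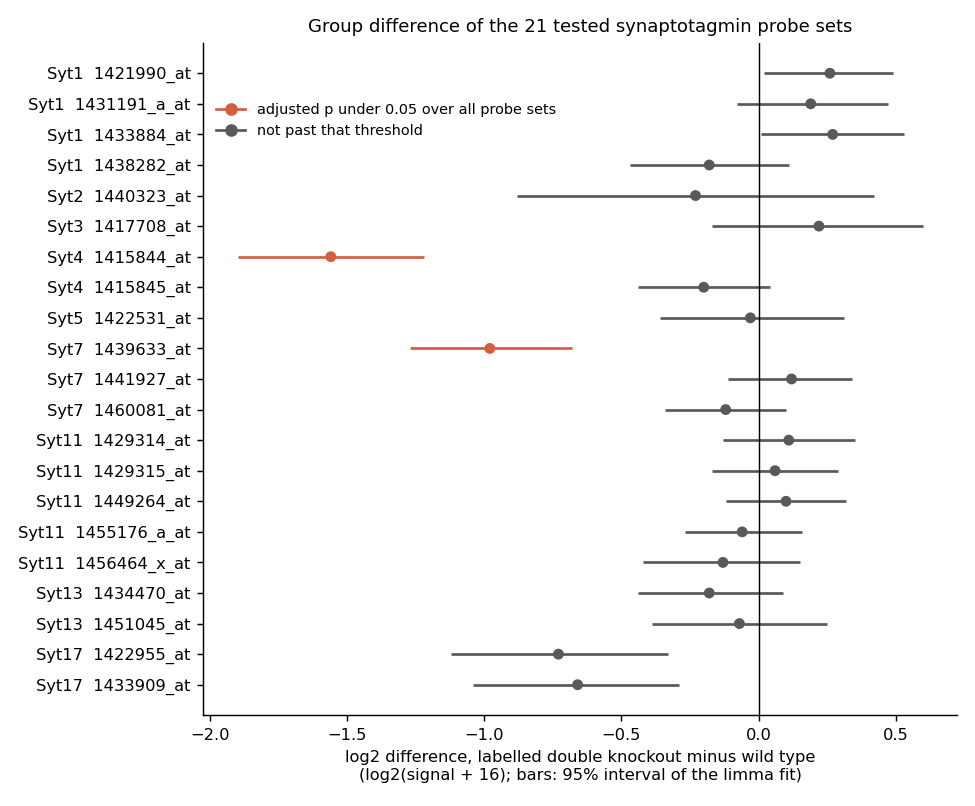
Log2 difference of the 21 tested synaptotagmin probe sets, labelled double knockout minus wild type, with the 95% interval of the limma fit. Orange marks the 2 probe sets past an adjusted p of 0.05, at -1.56 and -0.98, and the other 19 lie between -0.73 and 0.27.

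Syt1, the main fast calcium sensor of forebrain synapses, read higher in the labelled double knockout arrays at 2 of its 4 probe sets. Probe set 1433884_at read 4602, 5093 and 5908 in wild type against 6046, 6292 and 6402 in the labelled double knockout arrays. Probe set 1421990_at read 1526, 1753 and 1507 against 1795, 1893 and 2030. No arrays overlapped at either, but the steps between groups were small beside the range within wild type. Log2 differences were 0.27 (SE 0.12, 95% interval 0.01 to 0.53) and 0.26 (SE 0.10, 95% interval 0.02 to 0.49), and neither passed. Over 18 alternative settings the difference at 1433884_at ranged from 0.02, with quantile normalization, to 0.39. At 1421990_at it ranged from 0.21 to 0.32. Probe set 1431191_a_at, whose suffix marks probes shared by transcripts of the same gene, read 1415, 1229 and 1151 against 1519, 1252 and 1586. Probe set 1438282_at read 564, 637 and 492 against 480, 567 and 440. Groups overlapped at these 2, and their log2 differences had opposite signs, 0.19 (95% interval -0.08 to 0.47) and -0.18 (95% interval -0.47 to 0.11).

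Syt2, a fast sensor of hindbrain and parvalbumin interneuron synapses, was dim. Its 1 tested probe set, 1440323_at, read 101, 103 and 41.4 against 55.5, 49.4 and 90.6. Each group held arrays at both levels, and the log2 difference of -0.23 had a 95% interval of -0.88 to 0.42, the widest among the tested members. It turned to 0.08 once wild type replicate 1 and double knockout replicate 2 were left out. The 5 genes listed for parvalbumin interneurons summed to 4334 to 5855 and 4171 to 4856, overlapping between groups, and none passed. Log2 differences were -0.16 for Pvalb, -0.55 for Kcnc1 and -0.27 for Kcnc2. They were 0.01 for Gad1 and -0.08 for Gad2, which are not confined to parvalbumin cells. Probe sets 1420418_at and 1449866_at of Syt2 were too dim for the test, at 1.48 to 40.8 over all arrays.

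Syt11, the relative of Syt4, was measured by 5 bright probe sets, all with overlapping groups. Probe set 1429314_at read 2360, 2283 and 2817 in wild type against 2751, 2630 and 2659 in the labelled double knockout arrays, a log2 difference of 0.11 (95% interval -0.13 to 0.35). The others differed by 0.06 (1429315_at, designed from the same sequence record), 0.10 (1449264_at), -0.06 (1455176_a_at) and -0.13 (1456464_x_at, a set with some probes shared with other sequences). The 5 intervals together run from -0.42 to 0.35, so none reaches the difference of Syt4 at 1415844_at. Their log2 differences spanned 0.25, and 41% of genes with 2 or more tested probe sets spanned as much.

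Syt13, a member whose C2 domains do not bind calcium, had 2 probe sets with overlapping groups. Probe set 1434470_at read 847, 1062 and 796 against 807, 786 and 775, and 1451045_at read 604, 587 and 423 against 490, 556 and 475. The log2 differences were -0.18 (95% interval -0.44 to 0.09) and -0.07 (95% interval -0.39 to 0.25). At 1434470_at wild type replicates 1 and 2 lay above all labelled double knockout arrays and replicate 3 among them.

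**Figure D3:**
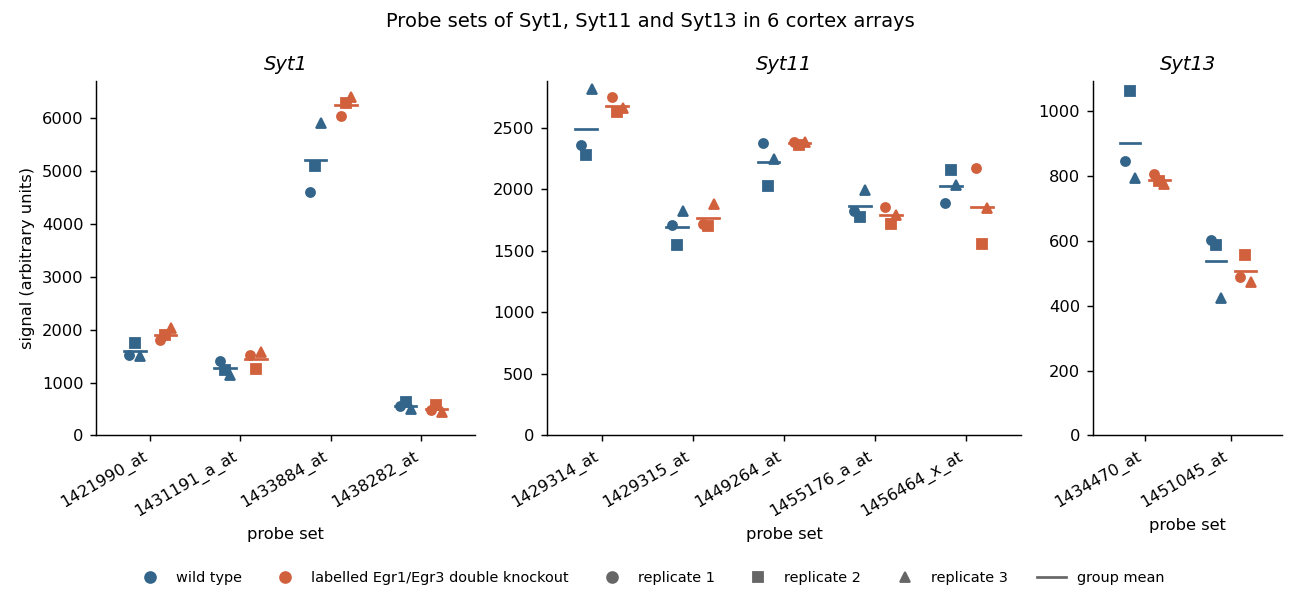
Signal of every probe set of Syt1, Syt11 and Syt13 in the 6 arrays (linear axis from 0, arbitrary units), with a point per array and group means as lines. The groups stand apart at 1421990_at and 1433884_at of Syt1, where the labelled double knockout arrays are higher, and overlap at the other 9 probe sets.

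Syt3, found at the plasma membrane and implicated in AMPA receptor internalisation, was measured by 1417708_at at 156, 92.8 and 126 against 133, 157 and 146. Its log2 difference was 0.22 (95% interval -0.17 to 0.60). Syt5 read 402, 343 and 453 against 408, 317 and 457 at 1422531_at, a log2 difference of -0.03 (95% interval -0.36 to 0.31). Replicate values of the 2 groups overlapped at both genes. Syt6, known for its role in the sperm acrosome reaction, was dim at all 4 probe sets and not tested. The brightest, 1426106_a_at, read 32.7, 20.5 and 11.6 in wild type against 36.5, 36.9 and 33.5 in the labelled double knockout arrays, without overlap but near the median of all probe sets. The other 3 read 0.197 to 16.

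The pattern of 1415844_at over the 6 arrays was compared with that of every other tested probe set of 1 symbol, by Pearson's r of log2 signals. The closest were Commd10 (0.995), Prkar1b, a regulatory subunit of protein kinase A (0.995), Tsnax (0.993), Sorcs3, a sorting receptor (0.993), and Ankrd34a (0.993). Their log2 differences were -0.53, -0.37, -0.46, -0.45 and -0.32, and none passed the threshold. Among the members, 1439633_at of Syt7 was closest, at 0.98. The arrays form 2 groups, so these values mostly repeat the group difference. For 1415845_at the closest were Sdcbp (0.996), Anp32b (0.991), Aqp11 (0.990), Zfp804a (0.988) and Idh1 (0.987). All of these read highest in wild type replicate 3, as 1415845_at did, and Sdcbp, Zfp804a and Idh1 overlapped between groups. Both lists are the highest of all tested probe sets over only 6 arrays, so nothing is read from them. The 2 Syt4 probe sets correlated with each other at 0.63.

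Syt4 lies within 5 Mb of Egr1, one of the targeted genes, in the RefSeq gene table of GRCm38.p6, and no other member shares a chromosome with Egr1 or Egr3. Of 46 tested genes within 5 Mb of Syt4, 1 was past the threshold (2.17%), Camk4, and of 99 within 10 Mb, 4 were (4.04%), against 172 of 11016 placed genes (1.56%). Camk4 (log2 difference -1.06), Nol4 (-0.88) and Pcdhb9 (-1.97) were lower in the labelled double knockout arrays. Pcdhb3 (0.77) was higher. Within 5 Mb the share was 3.08% around Syt6 (2 of 65) and 2.17% around Syt11 (2 of 92), and at most 2% around each of the other 7 members. Within 10 Mb it was at most 2.1% around any member but Syt4. What part position had in the Syt4 difference was not tested.

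Other genes of calcium-regulated secretion were read from lists, each gene by its brightest tested probe set. Of 7 further synaptotagmins, 6 were on the array and 4 were tested. None passed by limma, 1 had an unadjusted p under 0.05, against 16.6% of all probe sets tested, and the median log2 difference was -0.04. Syt12 read 132, 107 and 80.6 against 60.1, 84.4 and 89.1 (log2 -0.37), with overlap, and Syt16 read 538, 694 and 537 against 717, 809 and 696 (log2 0.33), without. Of 6 tested genes for other tandem C2 proteins, 0 passed and 1 had an unadjusted p under 0.05, with a median of 0.09 and the widest differences at Doc2b (-0.36) and Doc2a (0.30). None of 18 SNARE machinery genes passed or had an unadjusted p under 0.05. Their median was 0.07, and Stx6 (-0.31) and Stx4a (-0.29) differed most. None of 25 synaptic vesicle and active zone genes passed and 5 had an unadjusted p under 0.05, a share near that over all probe sets, with a median of 0.00. The widest in that list were Slc17a7, the vesicular glutamate transporter (0.62), and Unc13a, a vesicle priming factor (-0.40).

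Dense-core vesicle genes matter here because Syt4 is known on such vesicles. Of 17 tested, 1 passed. Scg5, a chaperone of the prohormone convertase Pcsk2, rose from 2095, 2297 and 1927 to 2878, 3159 and 3071, a log2 difference of 0.53 (SE 0.10, limma, Benjamini-Hochberg adjusted p = 0.0497), higher in 3 of 3 arrays. That call was lost without wild type replicate 1 or 3 and without any 1 of the labelled double knockout arrays. It was also lost with the replicate number as a block, and under other settings given at the end. The list had a median of 0.17, 7 genes with an unadjusted p under 0.05 and 7 whose groups did not overlap, where 16.6% and 22.3% of all probe sets tested did so. Bdnf, the cargo named above, read 214, 358 and 224 against 98.6, 118 and 152, a log2 difference of -1.0 that did not pass (adjusted p = 0.0549, limma), though it did with the replicate number as a block or with a robust trend.

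**Figure D4:**
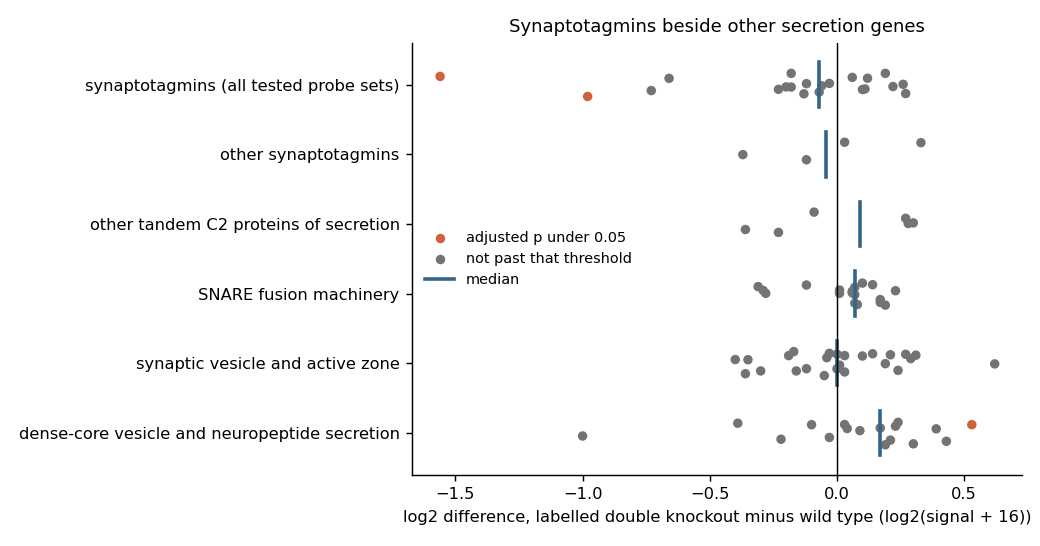
Log2 differences, labelled double knockout minus wild type, of the 21 synaptotagmin probe sets and of the tested genes of 5 lists, 1 point each, with a line at each median. Orange marks an adjusted p under 0.05. The 2 synaptotagmin calls lie at -1.56 and -0.98, and Scg5 at 0.53 is the only call in the other rows.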

How the data were processed

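The 6 arrays were read from the deposited table of probe set intensity signals, linear values summarised and scaled by the authors; after trimming 2% at each end the array means were 149.4 to 149.6, so total RNA cannot be compared. The sources used here do not give the software and settings. The platform annotation gave 1 symbol for 34945 of 45037 probe sets, several for 932 and none for 9160, and 64 controls were left out. No pair of arrays held identical values.

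Signals under 1 (4.35%) were set to 1 and log2(signal + 16) was taken. The 22518 probe sets with a mean above the median entered a limma fit (version 3.58.1, R 4.3.3, group as the only term, eBayes with intensity trend) with Benjamini-Hochberg adjustment and a threshold of 0.05. The step was tested on simulated data. No permutation test was run, since with 3 arrays a group an exact one yields a two-sided p of 0.1 at the least.

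The text covers all probe sets of the 10 genes, Egr1 and Egr3, and the 5 probe sets most like each Syt4 probe set. Per list it names the genes past the threshold (up to 4) or else the 2 with the largest difference. Bdnf, Camk4, Nol4, Pcdhb3, Pcdhb9, Xist, Pam and the genes of the closing section were added after their values were seen. So were Calb1, Aqp4 and the other cell type markers given singly. The members, lists and tests were chosen with earlier results of these data known. Summed signals of lists for deep layer neurons, endothelium, striatum, hippocampus and thalamus overlapped between groups. Other settings tried were quantile normalization, a common median, pseudocounts of 1 and 64, no filter or one at the 75% quantile, other variance models, array weights, a replicate block, arrays left out and, added after the data were seen, wild type replicate 3 and double knockout replicate 1 left out together. Promoters are RefSeq sequences of GRCm38.p6.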

Additional observations from a re-analysis of the deposited data

How the results depend on the processing

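The number of synaptotagmin probe sets past the threshold, 2, was 0 with no filter (limma, 5 of 28 at an unadjusted p under 0.05) and 0 without wild type replicate 1 and double knockout replicate 2 together (5 of 21), and ranged from 1 to 4 when single arrays were left out. Over all probe sets, 5161 of 45037 had an unadjusted p under 0.05 by limma with no filter, and 2573 of 22518 without those 2 arrays. Of the 21 tested probe sets none that passed changed sign under any of 18 settings. Among those not past the threshold, the sign turned for Syt2 1440323_at, Syt5 1422531_at, Syt11 1429315_at and Syt13 1451045_at in at least 1 setting. The number of listed secretion and Egr genes past the threshold was 2 of 74 (Egr3 and Scg5). It was 1, Egr3 each time, with a common median, with quantile normalization and with a pseudocount of 1. It stayed at 2 with other genes under a robust trend (Bdnf and Scg5) and a replicate block (Bdnf and Egr3). The same held without wild type replicate 3 (Cpe and Egr3). It was 0 with no filter (14 at an unadjusted p under 0.05), with no intensity trend (14), without wild type replicate 1 and double knockout replicate 2 (11) and without wild type replicate 3 and double knockout replicate 1 (22), and 0 to 4 with single arrays left out. Over all probe sets the calls numbered 229, with 10 under no filter and 131 with no trend. They numbered 9 and 68 without the 2 pairs of arrays named above, and 33 to 300 with single arrays left out. An unadjusted p under 0.05 by limma was found for 3588 of 22518 with no trend. It was found for 3256 of 22518 without wild type replicate 3 and double knockout replicate 1. Residuals of same-numbered arrays correlated at -0.15, 0.00 and -0.10. The labels name no pairing, and with 3 arrays a group these values cannot decide whether the numbers pair the arrays. The replicate block left 2 synaptotagmin calls and gave 182 over all probe sets. The planned protein identities were not run. With 3 arrays a group, and several members near or below the median signal, small differences and those of Syt6 and most of Syt2 are not detectable here.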

Other observations

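Pam, the enzyme that amidates neuropeptides, read 952, 122 and 673 in wild type against 1020, 108 and 1095 in the labelled double knockout arrays, so wild type replicate 2 and double knockout replicate 2 stood far below the other 4 arrays. The groups did not overlap in 6 of 25 synaptic vesicle and active zone genes, 3 higher and 3 lower, against 22.3% of all probe sets tested. None passed the threshold by limma, and 5 of the 25 had an unadjusted p under 0.05. Higher in the labelled double knockout arrays were Sv2a (log2 difference 0.31), Syngr1 (0.27) and Rab3a (0.19), and lower were Unc13a (-0.40), Rims3 (-0.35) and Syn3 (-0.30).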
